A study of Mus musculus with 24 samples.

Results

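The internal regions of 4 endogenous retroviruses, MuLV-int, MMVL30-int, RLTR6-int and MMERGLN-int, were followed across all 8 conditions of a series of mouse embryonic fibroblasts (MEFs) with mutations in H3K9 methyltransferases. They are 4 of the 118 ERV1 rows and 4 of the 1445 repeat rows in a table of 49382 named genes and repeat elements. They were picked by name because, in these same counts, they hold most of the ERV1 rise and differ between lines, so their own differences are given as a description with no test. By mean level over the 24 libraries they are the 4 highest ERV1 rows, with MMERGLN-int (2496 counts per 1000000 gene counts) just inside and RLTR4_MM-int (1819) just outside.

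Endogenous retroviruses are genomic copies of retroviruses, built of an internal region (here "-int") between 2 long terminal repeats (LTRs) that hold the promoter. ERV1 elements are relatives of the gammaretroviruses. MuLV is the murine leukaemia virus, of which the mouse genome carries copies with intact genes, VL30 is a family that lacks intact viral genes and whose RNA can be packaged by MuLV particles, and GLN is named for the glutamine tRNA that primes its reverse transcription. In mouse cells the zinc finger protein Zfp809 binds the primer binding site of MuLV and recruits Trim28 (KAP1), which brings in Setdb1 (Eset1), the enzyme that places H3K9me3 on many of these elements.

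Total RNA of 24 samples, 3 per condition, was sequenced on a stranded protocol to ask what each loss of a methyltransferase does to transcription. WT cells are a clone of Eset1 cKO MEFs with an inducible Cre recombinase and were not treated; *E1* cells are the same clone after 4-hydroxytamoxifen (4-OHT), which removes floxed *Eset1* exons. *E2* cells are 1 clone with an *Eset2* mutation made by CRISPR/Cas9 in WT, untreated, and *E1E2* cells are that clone after 4-OHT. In the first series *E1 S1S2* (*Suv39h1* and *Suv39h2* mutant) was followed by *6KO1* (*Eset2*, *G9a* and *Glp* mutant as well). In the second *E1E2* was followed by *E1E2 G9Gl* (*G9a* and *Glp* mutant) and then by *6KO2* (*Suv39h1* and *Suv39h2* mutant as well). The libraries of *E1 S1S2*, *6KO1*, *E1E2 G9Gl* and *6KO2* were all made after 4-OHT. Each new clone was made from untreated cells of the clone before it, and *Eset1* was deleted in it afterwards. WT and *E1* are 1 clone, as are *E2* and *E1E2*. Each other condition is a clone of its own kept through rounds of selection. In comparisons between clones, genotype and clone thus cannot be told apart. After CRISPR/Cas9 the lines were given an inducible Cre construct again and kept in puromycin. Every mutant condition but *E2* had 4-OHT, where WT had none. Between treated and untreated cells, loss of *Eset1* and the 4-OHT treatment itself thus cannot be told apart. The treatment field of the labels names 4-OHT for every sample, but the titles mark WT and *E2* libraries as controls, and the titles were followed. The libraries are biological replicates of 1 clone, and p-values measure the spread between them.

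The libraries held 24737307 to 37419816 counts, of which 19541909 to 31489070 lay on genes. A level is a count per 1000000 counts on genes in the same library; it is not divided by length, so a level is compared only with that of the same element in other samples. Fewer cells with an element's RNA and less RNA per cell cannot be told apart in such bulk samples. The fibroblast genes *Vim* (1474 to 2618), *Fn1* (852 to 1671) and *Col1a1* (466 to 2129) were high in all 24 libraries, while *Thy1* was between 0 and 16.8. Summed epithelial (*Epcam* and *Cdh1*) and pluripotency markers (*Pou5f1* and *Nanog*) were at most 0.634 and 0.712. *Setdb1* levels were 52.8 to 63.4 in WT and 37.9 to 43.1 in *E1*, but 39.6 to 54.2 in *E2* and 45.9 to 48.7 in *E1E2*, so the RNA over the whole gene did not separate the last pair. *Setdb2* (*Eset2*) levels were 28.4 to 29.4 in WT and 10.1 to 12.3 in *E2*. Over 11753 genes, the libraries least like the others of their condition were WT replicate 2 (r of 0.979 and 0.983), *E2* replicate 2 (0.990 with both) and *E1* replicate 3 (0.993 and 0.995). In *6KO2* replicate 2 (0.994 and 0.995) the level of MMVL30-int stood apart. Values are given with and without these 4 libraries where they matter.

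MuLV-int was low in WT and highest in *E1*. Its level was 217, 129 and 188 in the WT libraries (mean 178 ± 44.8, SD, n = 3) and 20082, 18880 and 16770 in the *E1* libraries (18577 ± 1677). The mean of *E1* was 105-fold that of WT, and 91.8-fold without WT replicate 2. Without *E1* replicate 3, the lowest of its condition, it was 109.6-fold. All *E1* libraries lay above every other library of the series.

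In the other lines MuLV-int was well below its *E1* level. *E1 S1S2* had 4589, 4310 and 4695 (4531 ± 199), which was 4.10-fold lower than *E1* and 25.5-fold higher than WT. *6KO1* had 7040, 6018 and 6149 (6402 ± 556, 36.0-fold WT). The step from *E1 S1S2* to *6KO1* was small, at 1.41-fold, with no overlap of the libraries, and its direction turned when repeat counts were scaled by the total on repeats (log2 fold change -0.049 in place of 0.50).

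In the second series MuLV-int was lowest after loss of both Eset enzymes and highest in *6KO2*. *E2*, which was not treated with 4-OHT, already had 3832, 3884 and 3859 (3858 ± 25.7, 21.7-fold WT). Whether *Eset1* was fully intact in these untreated cells was not tested here. The paper probed the methyltransferase proteins of WT and the mutants by western blot. After 4-OHT the same clone (*E1E2*) had 2481, 2396 and 2368 (2415 ± 58.8), 1.60-fold lower than *E2*, with no overlap. The same 4-OHT treatment thus went with a higher MuLV-int level in the *Eset1* clone and with a lower one in the *Eset2* mutant clone, a difference that was not tested.

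*E1E2 G9Gl* had 6664, 5842 and 6144 (6217 ± 416, 2.57-fold *E1E2*), and *6KO2* had 13551, 13037 and 13346 (13311 ± 258, 74.9-fold WT). The order of the MuLV-int levels was *E1*, *6KO2*, *6KO1*, *E1E2 G9Gl*, *E1 S1S2*, *E2*, *E1E2* and WT. Only *6KO1* and *E1E2 G9Gl* overlapped among neighbours. The 2 lines that lack all 6 enzymes differed by 2.08-fold, with every *6KO2* library higher.

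**Figure D1:**
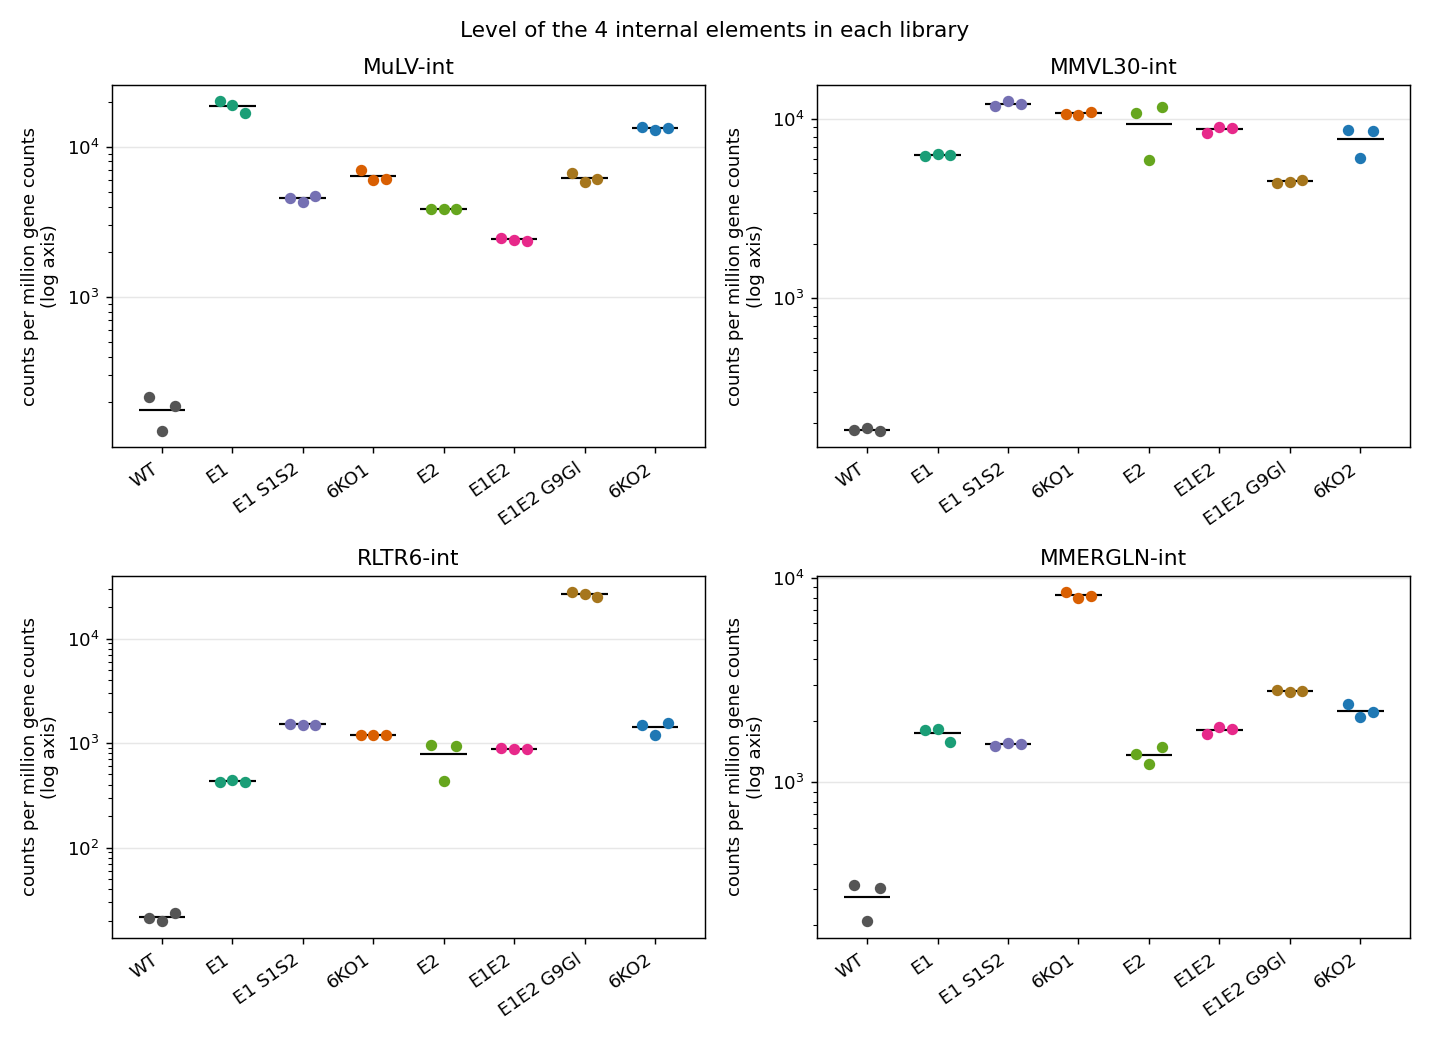
Level of each internal element in the 24 libraries (log axis, counts per 1000000 gene counts); points are libraries in the order of replicate 1, 2 and 3 and bars are condition means. The highest condition is *E1* for MuLV-int (mean 18577), *E1 S1S2* for MMVL30-int (12246), *E1E2 G9Gl* for RLTR6-int (26443) and *6KO1* for MMERGLN-int (8211).

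MMVL30-int was the most evenly derepressed of the 4 elements: every mutant mean lay between 4496 and 12246, against 185 ± 2.65 in WT (184, 188 and 182). *E1* had 6241, 6366 and 6301 (6303 ± 62.9, 34.1-fold WT). *E1 S1S2* had the highest level, with 11936, 12590 and 12213 (12246 ± 328, 66.3-fold WT and 1.94-fold *E1*). For VL30 the *Suv39h* mutant line therefore stood above *E1*, whereas for MuLV it stood below.

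*6KO1* had 10734, 10628 and 11040 (10800 ± 214), slightly under *E1 S1S2* (1.13-fold lower). *E2* had 10779, 5922 and 11663 (9455 ± 3091, 51.2-fold WT), with its replicate 2 near the *E1* level. Without that library the *E2* mean was 11221 and the fold against WT 60.8. *E1E2* had 8352, 9043 and 8955 (8783 ± 376), which overlapped *E2*, and which lay below both other *E2* libraries once replicate 2 was left out (0.78-fold).

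*E1E2 G9Gl* had the lowest VL30 level of the mutants, with 4417, 4464 and 4608 (4496 ± 99.8), 1.95-fold lower than *E1E2*. *6KO2* had 8765, 6104 and 8549 (7806 ± 1478, 1.74-fold *E1E2 G9Gl*, and 1.93-fold without its replicate 2). In the order *E1 S1S2*, *6KO1*, *E2*, *E1E2*, *6KO2*, *E1*, *E1E2 G9Gl* and WT, each neighbouring pair from *6KO1* to *E1* overlapped. The top and the last 2 steps of that order were free of overlap.

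RLTR6-int set *E1E2 G9Gl* apart from every other line. In WT it was the scarcest of the 4 elements in counts, at 21.2, 19.6 and 23.5 (21.5 ± 1.96). *E1E2 G9Gl* had 27809, 26561 and 24959 (26443 ± 1429). This was 1232-fold the WT mean, 30.01-fold *E1E2* (the clone before it, after 4-OHT) and 22.1-fold *6KO1*. It was the ERV1 row with most counts in *E1E2 G9Gl* and ranked 2 among all repeat elements there, against 276 in WT.

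The other mutant lines had a far lower RLTR6-int level. *E1* had 423, 439 and 426 (429 ± 8.52, 19.996-fold WT), and *E1 S1S2* 1534, 1489 and 1492 (1505 ± 25.004, 70.1-fold WT). *6KO1* had 1194, 1197 and 1195 (1195 ± 1.67). *6KO2*, the clone after *E1E2 G9Gl* in the second series, had 1483, 1194 and 1561 (1412 ± 193). From *E1E2 G9Gl* to *6KO2* the level was thus 18.7-fold lower, with no overlap.

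*E2* had 956, 429 and 946 (777 ± 302), and *E1E2* 887, 883 and 873 (881 ± 7.10). The *E1E2* mean was 1.13-fold that of *E2*, but 0.93-fold when *E2* replicate 2 was left out, so the pair had no stable direction. Below *E1E2 G9Gl* the order was *E1 S1S2*, *6KO2*, *6KO1*, *E1E2*, *E2*, *E1* and WT, where *6KO2* overlapped both its neighbours and *E2* both of its own.

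The summed levels of 3 leukocyte markers (*Ptprc*, *Cd3e* and *Cd79a*) were 3.49 to 4.04 in *E1E2 G9Gl* and 0 to 1.30 in the other conditions. *Ptprc* and *Cd3e* were at 0 in the median library, with highest levels of 1.996 and 1.89. *Cd79a* was at most 0.302 in any library. Whether any leukocytes were present, and their part in the RLTR6-int level, was not tested.

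MMERGLN-int had the smallest fold against WT of the 4 elements in all 7 lines, and of those lines *6KO1* stood out. WT had 313, 209 and 304 (275 ± 57.8), where replicate 2 was the low library, as for MuLV-int. *6KO1* had 8526, 7981 and 8126 (8211 ± 283), 29.8-fold the WT mean, and 26.6-fold without WT replicate 2. It was 5.35-fold the level of *E1 S1S2*, the clone before it in the first series, and 3.66-fold that of *6KO2*.

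The remaining GLN levels lay close together. *E1* had 1813, 1820 and 1575 (1736 ± 140, 6.31-fold WT), *E1 S1S2* 1507, 1552 and 1544 (1534 ± 23.7) and *E2* 1382, 1231 and 1488 (1367 ± 129). *E1E2* had 1716, 1856 and 1828 (1800 ± 73.8, 1.32-fold *E2*). *E1E2 G9Gl* had 2831, 2762 and 2801 (2798 ± 34.6, 10.2-fold WT) and *6KO2* 2419, 2094 and 2217 (2243 ± 164, 8.16-fold WT). From *6KO1* down the order was *E1E2 G9Gl*, *6KO2*, *E1E2*, *E1*, *E1 S1S2*, *E2* and WT, and only *E1E2* and *E1* overlapped among neighbours.

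The summed levels of 2 endothelial markers (*Pecam1* and *Cdh5*) were 3.92 to 4.55 in *6KO1*, 2.38 to 2.998 in *6KO2*, 1.28 to 1.88 in *E1E2 G9Gl* and 0.198 to 0.585 in the other conditions. Both were at 0 in some library, and their part in the GLN level was not tested.

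All 4 elements had every mutant library above every WT library and a fold of means of at least 2 in each of the 7 comparisons with WT. Of the 1217 tested repeat elements, 23.2% did so in *6KO2*, 39.7% in *6KO1*, 42.6% in *E1E2 G9Gl*, 7.72% in *E1 S1S2*, 6.24% in *E1E2*, 5.75% in *E2* and 5.59% in *E1*. The 4 were chosen on these comparisons, which share the 3 WT libraries, and nothing is read from their count.

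Together the 4 elements took 44.1% ± 1.81 (SD, n = 3) of all ERV1 counts in WT and 79.6% (*6KO2*) to 85.2% (*E1E2 G9Gl*) in the mutants. These shares do not depend on the scaling. The summed share hardly told the mutant lines apart, while the make-up did. MuLV-int was 54.8% ± 1.44 of the ERV1 counts in *E1* and 42.9% ± 2.44 in *6KO2*, and at most 21.2% elsewhere. MMVL30-int was 52.7% in *E1E2*, 51.6% in *E1 S1S2* and 49.4% in *E2*. RLTR6-int was 56.4% ± 1.17 in *E1E2 G9Gl* and at most 6.35% elsewhere, and MMERGLN-int was 25.3% ± 0.138 in *6KO1*, where MMVL30-int held 33.3%.

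Among all LTR counts the 4 elements were 4.73% in WT, 52.0% in *E1* and 27.7% in *6KO1*. The lines with the most and the least of their LTR counts in these 4 rows were thus *E1* and *6KO1* among the mutants. The summed level of the 4 was 659 ± 101 in WT, 27045 ± 1789 in *E1* and 26609 ± 840 in *6KO1*. In this pair of mutants nearly equal sums stood for very different compositions. Among the mutants the sum was lowest in *E1E2* (13880 ± 391) and highest in *E1E2 G9Gl* (39954 ± 1629).

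**Figure D2:**
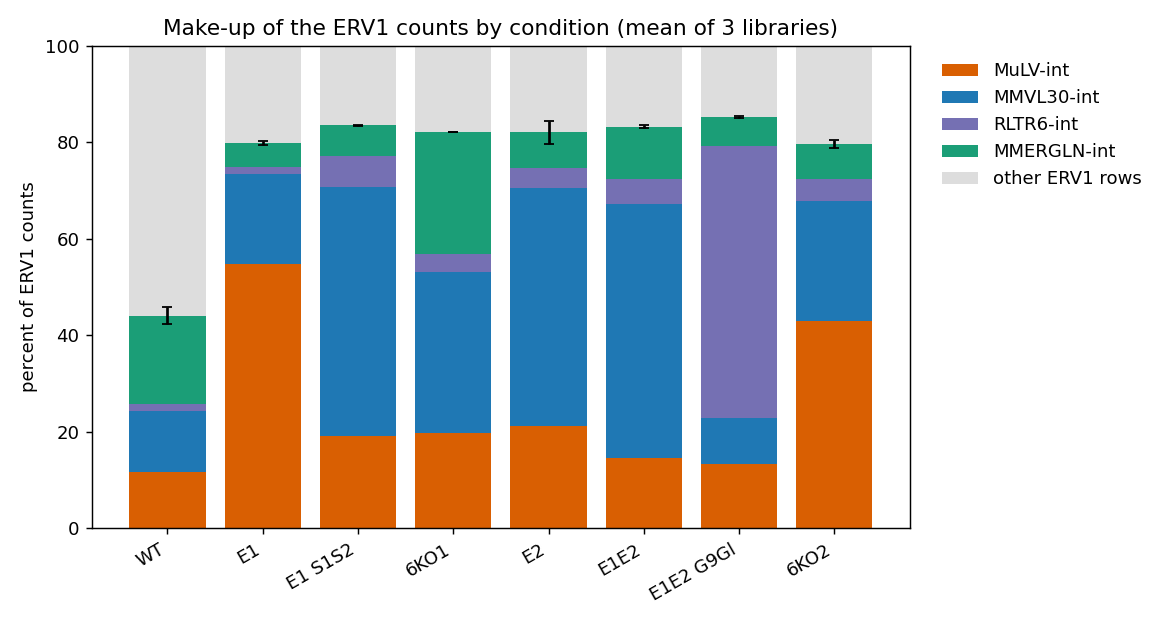
Share of ERV1 counts on each of the 4 internal elements and on the other 114 ERV1 rows, by condition (percent, mean of 3 libraries, bars from 0). Error bars are the SD of the summed share, which is 44.1% in WT and 79.6% to 85.2% in the mutants.

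Ratios between members within a library, which no scaling can change, showed the same contrasts. Per 100 counts on MMVL30-int, MuLV-int had 96.5 ± 25.1 in WT, 295 ± 27.9 in *E1* and 27.6 ± 1.87 in *E1E2*. The *6KO1* and *6KO2* ratios were 59.3 ± 5.46 and 175 ± 33.6, without overlap. RLTR6-int per 100 MMVL30-int counts lay between 6.81 and 18.2 in WT and 6 of the mutants, and at 589 ± 44.3 in *E1E2 G9Gl*. Outside *E1E2 G9Gl*, the condition means of this ratio thus stayed within a factor of 3. The steps were not equal, however: from *E1* to *E1 S1S2* RLTR6-int rose 3.51-fold and MMVL30-int 1.94-fold. MuLV-int per 100 MMERGLN-int counts ranged from 64.3 ± 4.25 in WT and 77.9 ± 4.06 in *6KO1* to 1070 ± 35.4 in *E1*.

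Other rows that by name belong to the same retroviruses were then tested, because they did not enter the choice of the 4. They are 24 ERV1 rows whose names start with RLTR4, RLTR6, MMERGLN, MURVY or MuRRS or are of the RLTR1 group, and 22 of them passed the filter on low counts. The start RLTR4 also took in 8 rows of the RLTR41, RLTR47 and RLTR48 groups. The relatives are not independent of the internal rows, since a transcript of 1 provirus runs through its LTRs and its internal region. Their p-values are thus no separate support for the patterns of the 4. A row was called where edgeR's quasi-likelihood test gave an adjusted p of at most 0.01 and a fold change of at least 2.

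Against WT, 20 of the 22 relatives rose in *E1E2 G9Gl* (41.4% of all tested repeat elements were called higher), 19 in *6KO1* (32.8%), 16 in *6KO2* (22.4%), 11 in *E1E2* (5.51%), 10 in *E1 S1S2* (6.41%), 10 in *E1* (4.60%) and 9 in *E2* (4.93%). The median log2 fold change of the relatives ran from 0.84 (*E1*) to 2.98 (*E1E2 G9Gl*), and that of all elements from 0.10 (*E1*) to 0.78 (*E1E2 G9Gl*). No relative was called lower than WT by edgeR or by DESeq2, and 0 were lower at an unadjusted p under 0.05. Of all tested elements, 2.63% were called lower in *6KO1*, 2.30% in *E2*, 2.05% in *6KO2*, 2.05% in *E1E2 G9Gl*, 1.56% in *E1E2*, 0.740% in *E1 S1S2* and 0.247% in *E1*.

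The rows of the MuLV group followed MuLV-int. RLTR4_Mm, its LTR, rose by a log2 fold change of 4.07 ± 0.12 (SE) in *E1* (adjusted p = 5.66e-32, edgeR), from 70.8 to 97.5 in the WT libraries to 1350 to 1539. RLTR4_MM-int, another MuLV-related internal row, rose by 4.28 ± 0.13 in *E1* (adjusted p = 2.23e-31, edgeR). Both then fell from *E1* to *E1 S1S2*, with log2 fold changes of -1.92 ± 0.11 and -1.54 ± 0.11, and were lower in *E1E2* than in *E1*, with -2.36 and -2.37. RLTR4_Mm was higher in *6KO2* than in *6KO1* by 1.21 ± 0.10 (adjusted p = 1.79e-13, edgeR).

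Of the RLTR6 LTR rows, RLTR6C_Mm and RLTR6_Mm had the patterns nearest to MMVL30-int. RLTR6C_Mm rose by between 5.10 (*E1E2 G9Gl*) and 6.35 (*E1 S1S2*) in the 7 lines, from 5.45 to 6.73 in the WT libraries. RLTR6_Mm rose by between 3.65 (*E1E2 G9Gl*) and 5.10 (*E1 S1S2*). In *E1E2 G9Gl* RLTR6_Mm fell by 1.23 against *E1E2* on the log2 scale (adjusted p = 5.55e-09, edgeR), while RLTR6B_Mm rose. RLTR6_Mm also fell from *E1 S1S2* to *6KO1*, by 1.07 on the log2 scale (adjusted p = 1.8e-07, edgeR). Its mean went from 584 to 296, a larger step than the 1.13-fold of MMVL30-int. This call lay near the fold threshold and was lost with no TMM factor.

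RLTR6B_Mm carried the *E1E2 G9Gl* pattern of RLTR6-int. Its level was 1.93 to 2.73 in the WT libraries, 38.3 to 43.8 in *E1E2*, 1314 to 1436 in *E1E2 G9Gl* and 57.3 to 75.2 in *6KO2*. The log2 fold change was 9.20 ± 0.24 against WT (adjusted p = 3.78e-34, edgeR) and 5.05 ± 0.19 against *E1E2*, and that of *6KO2* against *E1E2 G9Gl* was -4.31 ± 0.18 (adjusted p = 1.41e-24, edgeR). Of the 3 RLTR6 LTR rows it alone rose between *E1E2* and *E1E2 G9Gl*, and RLTR6C_Mm, whose mean was 396 in *E1E2* and 222 in *E1E2 G9Gl*, was not called there.

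MMERGLN_LTR, the LTR of GLN, rose by 3.61 ± 0.10 in *6KO1* (adjusted p = 9.07e-33, edgeR). Its level was 255 to 264 in the *6KO1* libraries, 15.8 to 20.9 in WT and 44.7 to 47.1 in *6KO2*. The change from *E1 S1S2* to *6KO1* was 2.51 ± 0.10, and that of *6KO2* against *6KO1* was -2.33 ± 0.09 (adjusted p = 1.72e-24, edgeR). *E2* lay at the fold threshold, with 1.00 ± 0.10.

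**Figure D3:**
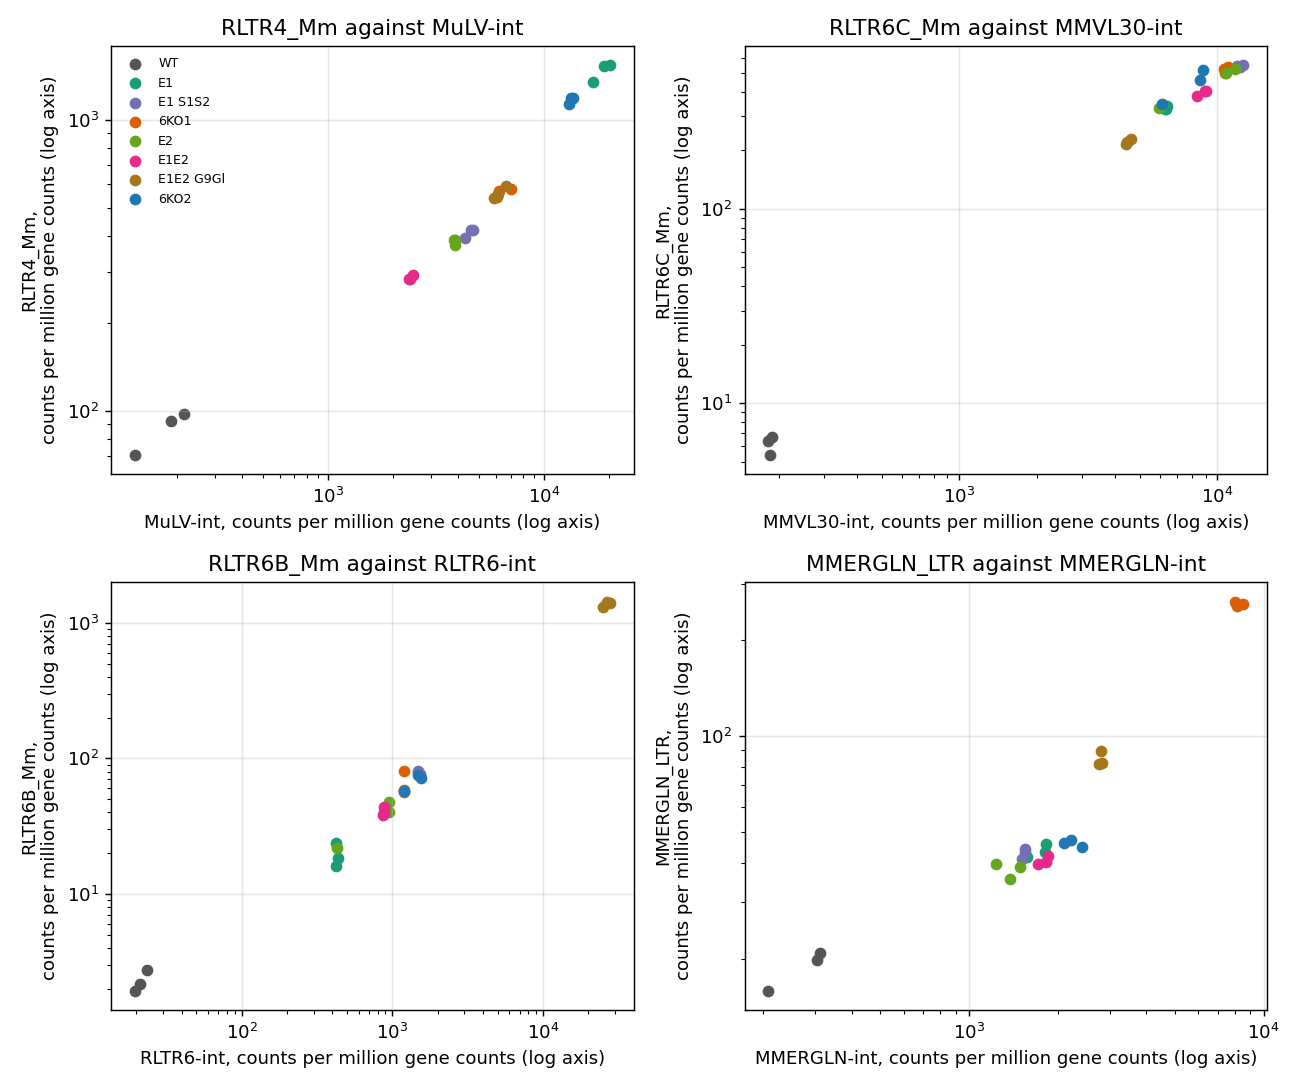
Level of an LTR row against the level of the internal row whose pattern it follows, in the 24 libraries (both axes log, counts per 1000000 gene counts; colours are conditions). RLTR6B_Mm and RLTR6-int are both highest in *E1E2 G9Gl* (means 1383 and 26443), and MMERGLN_LTR and MMERGLN-int in *6KO1* (260 and 8211).

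The balance of LTR and internal counts differed between WT and the mutants for most pairs of rows. RLTR4_Mm had 49.8 ± 5.01 counts per 100 on MuLV-int in WT and 7.95 to 11.9 (condition means) in the mutants, and RLTR4_MM-int had 114 ± 4.13 in WT and 21.5 to 32.96. Per 100 on RLTR4_MM-int, however, RLTR4_Mm had 43.6 ± 5.17 in WT and 27.5 to 39.4 in the mutants, and *6KO2* (37.9 to 40.7) overlapped WT (39.9 to 49.5). The MuLV gap thus lay mainly between MuLV-int and both RLTR4 rows. RLTR6B_Mm per 100 RLTR6-int was 10.6 ± 0.938 in WT and 4.52 to 5.44 in the mutants, *E1E2 G9Gl* included (5.23 ± 0.192). Its ratio to RLTR6-int thus stayed narrow across mutants whose RLTR6-int levels spanned 429 to 26443.

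MMERGLN_LTR per 100 MMERGLN-int was 6.92 ± 0.593 in WT and 2.06 to 3.16 in the mutants. RLTR6_Mm per 100 MMVL30-int was 8.62 ± 0.279 in WT and 2.74 to 5.40 in the mutants, whereas RLTR6C_Mm was the reverse, with 3.35 ± 0.347 in WT and 4.43 to 5.65. RLTR6C_Mm is thus the only one of these LTR rows with more counts per internal count in the mutants than in WT. Reads that map to several elements are shared between rows by the counting, so these ratios carry the error of that sharing.

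Among relatives outside the 4 groups, MURVY-int was, like RLTR6-int, far higher in *E1E2 G9Gl* than in any other condition. MURVY-int, the internal row of the murine retroviruses repeated on the Y chromosome, had 2.12 to 2.89 in WT and 396 to 441 in *E1E2 G9Gl*, a log2 fold change of 7.30 ± 0.13 (adjusted p = 5.09e-40, edgeR). It was 18.7 to 20.1 in *6KO2*. The Y-linked genes *Ddx3y*, *Kdm5d*, *Eif2s3y* and *Uty* had at most 2 counts in any of the 24 libraries. Where the MURVY-int reads came from was not tested.

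MuRRS4-int, of the MuRRS group of MuLV-related sequences, rose by 4.05 ± 0.13 in *6KO1* and 4.50 ± 0.13 in *E1E2 G9Gl*, from 8.39 to 14.1 in WT to 209 to 214 and 264 to 265. RLTR1B-int had its largest rise in *6KO1* (4.92 ± 0.13, adjusted p = 3.39e-34, edgeR), with 508 to 519 against 12.1 to 16.7 in WT. In *6KO2* it was 246 to 249.

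**Figure D4:**
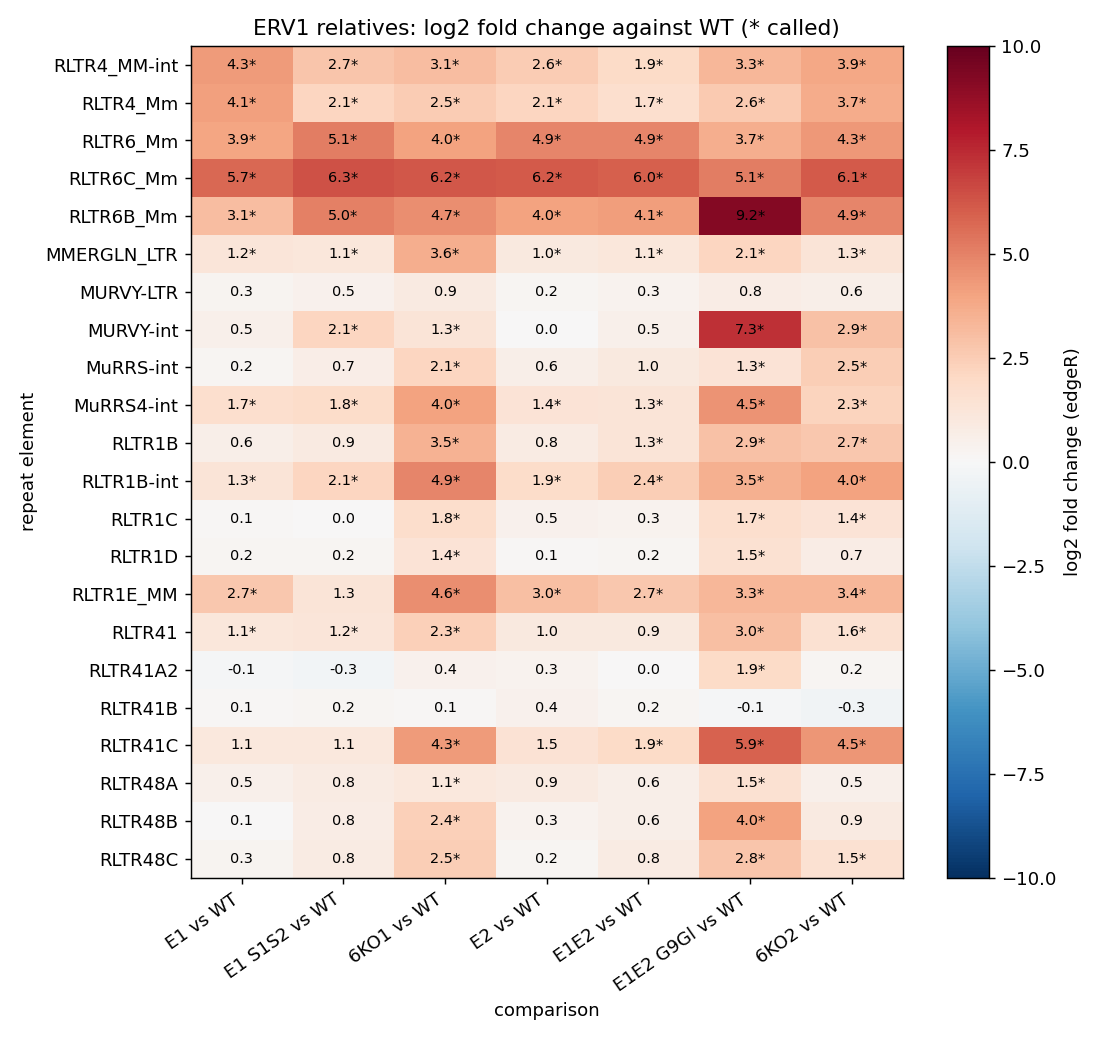
Log2 fold change against WT (edgeR, 24 libraries in 1 fit) of the 22 tested ERV1 relatives in the 7 mutant conditions; an asterisk marks a call (adjusted p of at most 0.01 and at least 2-fold). RLTR6B_Mm (9.20) and MURVY-int (7.30) in *E1E2 G9Gl* are the largest changes.

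From line to line the relatives changed as follows. From *E1* to *E1 S1S2*, 3 of 22 rose (1.48% of all elements were called higher) and 2 fell (1.15%). From *E1 S1S2* to *6KO1*, 12 rose (23.8%) and 1 fell (0.575%). From *E1E2* to *E1E2 G9Gl*, 14 rose (33.6%) and 1 fell (0.904%), and from there to *6KO2*, 3 rose (1.89%) and 8 fell (17.0%). Without the RLTR41, RLTR47 and RLTR48 rows, 9 rose in the step to *E1E2 G9Gl* and 3 fell in the step to *6KO2*.

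Between the 2 end points, *6KO2* against *6KO1*, 2 relatives were higher (MURVY-int and RLTR4_Mm, with 1.40% of all elements) and 4 lower (5.09%). *E1E2 G9Gl* against *6KO1* had 5 higher (9.94%) and 4 lower (3.86%), and *E1E2* against *E1* 2 higher (1.07%) and 2 lower (1.15%). *E1E2* against *E2* had no call in either direction by edgeR or DESeq2 (0.411% of all elements in each direction), with 5 higher and 3 lower at an unadjusted p under 0.05. Among those 3, RLTR4_MM-int had a log2 fold change of -0.64 ± 0.11 (adjusted p = 5.35e-05, edgeR) and RLTR4_Mm of -0.41 ± 0.10, below the fold threshold. Their sign was that of MuLV-int.

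In single libraries some groups of rows moved and others did not. In *E2* replicate 2, MMVL30-int was 0.53 times the mean of replicates 1 and 3, RLTR6-int 0.45, RLTR6_Mm 0.45, RLTR6B_Mm 0.50 and RLTR6C_Mm 0.64. MuLV-int was 1.010 times that mean in the same library, RLTR4_Mm 1.02, and RLTR4_MM-int 1.09, while MMERGLN-int was at 0.86 and MMERGLN_LTR at 1.07. The VL30 and RLTR6 rows were thus low in a library whose MuLV rows were near those of the other replicates.

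The same library was low in *Cxcl1* and *Ccl2*, which encode chemokines (1.68 against 43.6 and 32.0, and 36.8 against 408 and 377), and in *Nfkbia*, the inhibitor of NF-kB (29.7 against 125 and 90.7). These genes were chosen after their values were seen, and their part in the VL30 level was not tested. In *6KO2* replicate 2, MMVL30-int was 0.71 times the mean of the other replicates and RLTR6C_Mm also 0.71, with MuLV-int at 0.97. There *Cxcl1* (93.6 against 65.6 and 69.5) and *Nfkbia* (174 against 112 and 108) were higher, not lower.

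In WT replicate 2 the pattern was the other way round. MuLV-int was 0.64 times the mean of the other WT libraries, MMERGLN-int 0.68 and RLTR4_MM-int 0.61, while MMVL30-int was at 1.02 and RLTR6-int at 0.88. All folds of MuLV-int against WT were lower by the same factor without this library, for example 65.8 in place of 74.9 in *6KO2*, and RLTR6-int in *E1E2 G9Gl* was 1181-fold in place of 1232-fold.

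Genes that act on gammaretroviruses were examined next, 16 in the list, of which 14 were in the table and tested. The list holds receptors, silencing factors, restriction factors, an RNA-binding protein and annotated provirus loci, and was not used in choosing the elements. Genes called higher and lower were 0 and 0 in *E1* (2.27% and 1.99% of all 18565 genes), 2 and 0 in *E2* (2.90% and 3.21%), and 3 and 0 in *E1E2* (5.51% and 3.22%). For *6KO2* the counts were 1 and 0 (15.3% and 5.39%), for *6KO1* 3 and 1 (20.6% and 10.2%), for *E1E2 G9Gl* 2 and 1 (16.8% and 8.41%) and for *E1 S1S2* 2 and 1 (6.65% and 5.11%). The median log2 fold change of the list lay between -0.16 and 0.10, and that of all genes between -0.01 and 0.06.

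In *E1*, the line with the highest MuLV-int level, none of the 14 passed both thresholds by edgeR or by DESeq2, and 5 were higher and 3 lower at an unadjusted p under 0.05. In *E2*, *E1E2* and *6KO2* none was called lower by edgeR or by DESeq2, with 4, 3 and 5 lower at an unadjusted p under 0.05.

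*Zfp809*, the silencing factor that reads the MuLV primer binding site, was the gene of the list called most often, in 5 of the 7 lines. Its level was 12.2 to 14.2 in the WT libraries and 63.2 to 66.6 in *E1E2 G9Gl*, a log2 fold change of 2.25 ± 0.11 (adjusted p = 2.7e-14, edgeR). It rose by 1.30 in *E1 S1S2*, 1.53 in *E2*, 1.48 in *E1E2* and 1.08 in *6KO2*. In *E1* and *6KO1* the changes were 0.52 ± 0.12 and 0.83 ± 0.11, under the fold threshold.

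The other silencing factors were rarely called. *Trim28*, which recruits Setdb1, was not called in any line, with 365 ± 67.2 in WT and 231 ± 1.49 in its lowest condition, *E1E2 G9Gl*. *Pa2g4* (EBP1), a partner of the Trim28 complex at the MuLV primer binding site, fell by 1.66 on the log2 scale in *6KO1* (adjusted p = 3.18e-16, edgeR), from 385 to 411 in WT to 139 to 144. *Yy1* and *Morc2a* were not called in any of the 7 lines, nor was *Sfpq*, which was listed because it binds VL30 RNA.

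Among restriction factors, *Bst2* (tetherin, which holds budding virus at the membrane) rose by 2.33 ± 0.12 in *6KO1* and 2.30 ± 0.12 in *E1E2 G9Gl*, from 35.4 to 41.6 in WT to 198 to 227 and 184 to 198. It also rose in *E1 S1S2* (1.36) and *E1E2* (1.18). *Apobec3*, a cytidine deaminase packaged into virions, rose by 1.15 in *6KO1*, 1.11 in *E2* and 1.44 in *E1E2*, and fell by 1.58 in *E1 S1S2*, from 4.02 to 4.60 in WT to 1.26 to 1.75. *Zc3hav1* (ZAP), which targets viral RNA, rose by 1.03 in *6KO1*, and *Fv1*, which blocks incoming MuLV capsids, was not called in any line.

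Of the receptors, *Slc7a1* (ecotropic virus), *Xpr1* (xenotropic and polytropic virus) and *Slc20a2* (amphotropic virus) were not called in any line. *Slc20a1*, a phosphate transporter used by other gammaretroviruses, was called lower in *E1E2 G9Gl* (-1.002 ± 0.07, adjusted p = 1.53e-11, edgeR), with 80.5 to 83.1 against 154 to 160 in WT. This change lay at the fold threshold, and the call was lost by DESeq2, with 2 other scalings, and without WT replicate 2 or *E1E2 G9Gl* replicate 2.

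**Figure D5:**
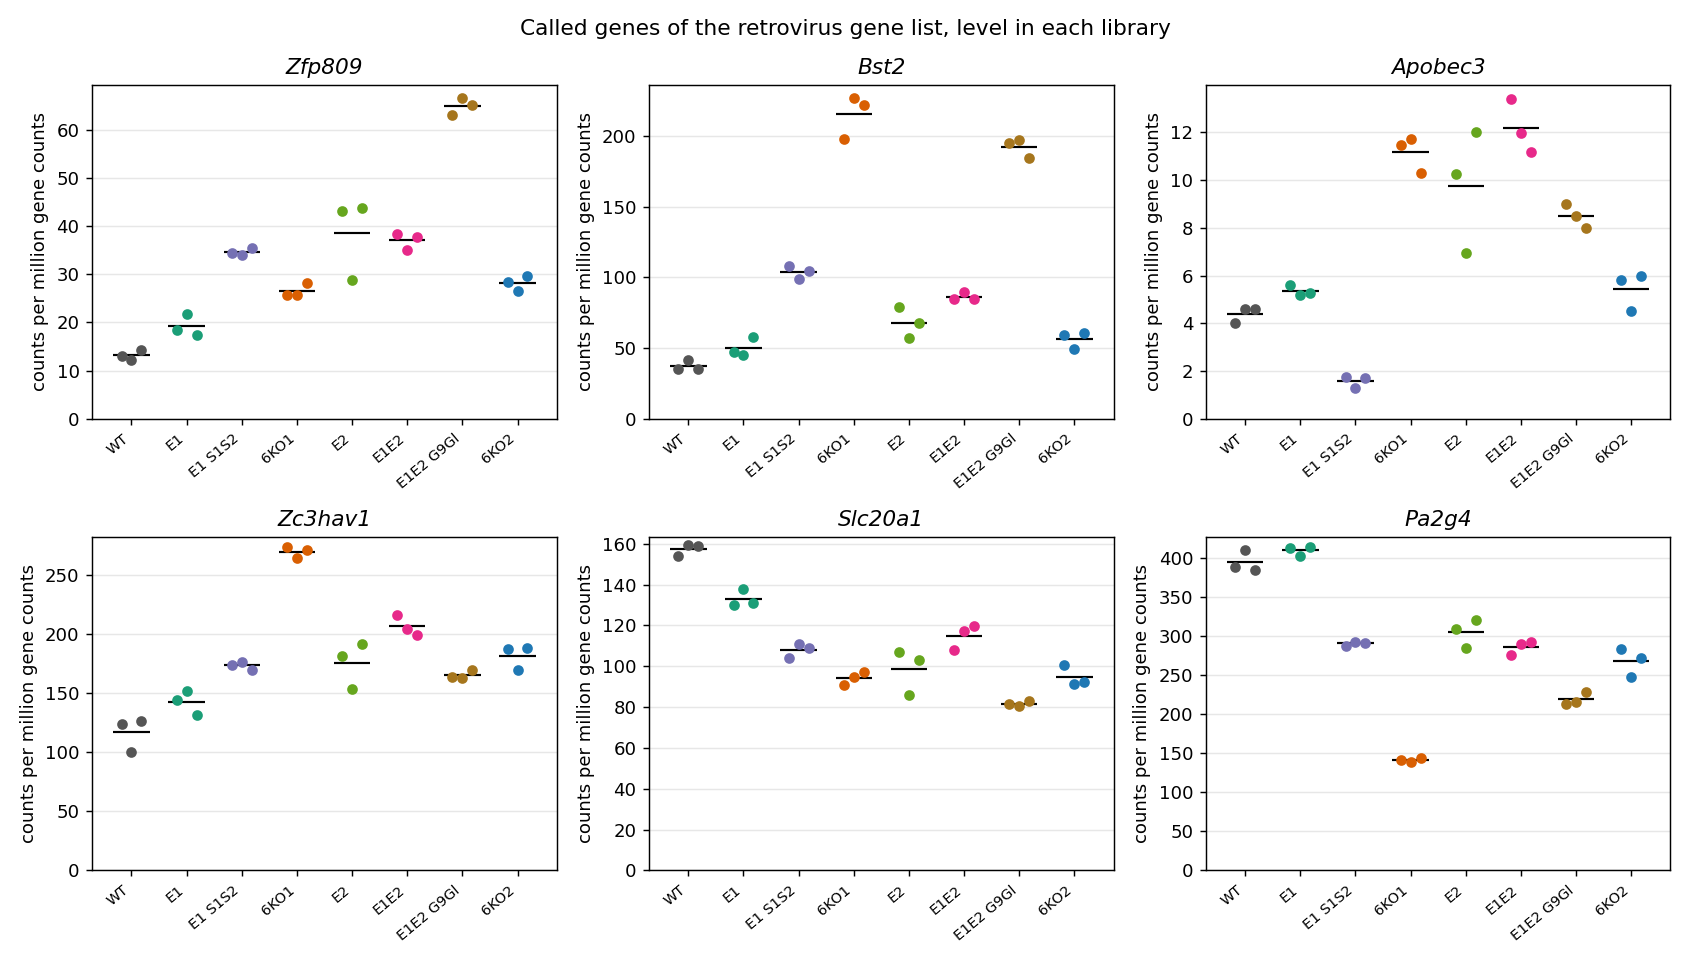
Level of the 6 genes of the list that were called against WT in at least 1 line (counts per 1000000 gene counts, axes from 0; points are libraries and bars condition means). *Zfp809* is highest in *E1E2 G9Gl* (65.0) and *Bst2* in *6KO1* (216) and *E1E2 G9Gl* (192).

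The rows and genes most like each element over the 24 libraries were found by Pearson's r of log2(level + 1), given as a description. All 24 points share the gap between WT and the mutants, so any gene that differs in the same way between WT and all lines scores high. Nearest to MuLV-int were RLTR4_MM-int (r = 0.990) and RLTR4_Mm (0.976), and then RLTR1F_Mm (0.851). Nearest to MMVL30-int were RLTR6C_Mm (0.997) and RLTR6_Mm (0.982). Nearest to RLTR6-int was RLTR6B_Mm (0.986). The nearest row of each of these 3 elements was thus an RLTR4 or RLTR6 row, and MMVL30-int and RLTR6-int were nearest to different RLTR6 LTRs.

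MMERGLN-int was not. Its nearest rows were RLTR10C (0.985) and MMERVK10C-int (0.976), of the ERVK family, and MMERGLN_LTR was not among the first 5. MMERVK10C-int had a mean of 127 in WT, 3513 in *6KO2*, 8290 in *E1E2 G9Gl* and 18397 in *6KO1*, the order of MMERGLN-int at the top. Between members, r lay between 0.652 (MuLV-int and RLTR6-int) and 0.819 (MuLV-int and MMVL30-int).

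Among genes, the nearest to MMVL30-int were *Ulbp1* (0.976), *Adam8* (0.956), *Podxl* (0.955), *Resf1* (0.935) and *Atf7ip* (0.920). *Ulbp1*, a ligand of the natural killer cell receptor NKG2D, had a mean of 4.88 in WT and 83.5 to 158 in the mutants. *Atf7ip*, a partner of Setdb1, had 69.2 in WT and 218 to 337 in the mutants, and *Resf1*, also described as a cofactor of Setdb1 at retroviruses, 169 in WT and 695 to 1247. Nearest to MuLV-int were *Mup-ps23* (0.921), *Foxm1* (0.873), *Zfp37* (0.873), *Ulbp1* (0.868) and *Atf7ip* (0.860), all well below the r of its own LTR.

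Nearest to RLTR6-int were *Gm8493* (0.966), *Crlf2* (0.956), *Ezr* (0.951), *Pik3r1* (0.946) and *BC029722* (0.941). *Ezr*, which links actin to the membrane, had means of 128 in WT, 779 in *E1E2 G9Gl* and 431 in *6KO2*. Nearest to MMERGLN-int were *Tnfrsf22* (0.975), *Fam208a* (0.962), *Lhfp* (0.955), *Cobll1* (0.953) and *Pou3f1* (0.941). *Fam208a* encodes TASOR, a subunit of the HUSH complex that acts with Setdb1, and had 70.8 in WT and 206 in *6KO1*, its highest condition.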

How the data were processed

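RNA-seq of 24 libraries, 3 for each of 8 conditions, was used. The authors trimmed reads with cutadapt 1.8.1, mapped them to GRCm38 with STAR 2.5.2b (versions per the submitters' processing notes), and made the count table with TEtranscripts, which splits a read that maps to several places over the annotated copies. The deposited values are raw counts per gene or element, summed over all copies of an element, in 1 table. Every column was matched to a sample by its label.

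Of the rows, 1 without a name, which held at most 0.00271% of a library, was left out. Levels are counts per 1000000 gene counts, and library totals are given in the report. More counts narrow the counting error, but the spread between replicates set the precision here. Genes and repeat elements were tested separately with edgeR 4.0.16 (quasi-likelihood, R 4.3.3, filterByExpr, TMM factors from the genes, gene totals as library sizes, Benjamini-Hochberg over all tested rows of a table). A call needed an adjusted p of at most 0.01 and a fold change of at least 2. The 7 mutant conditions were compared with WT, and 8 pairs of mutant conditions with each other, in 1 fit without a replicate block. Differences of fold changes came from the same fit. DESeq2 1.42.0, other scalings and filters and leaving out each replicate were the alternatives. The scripts were tested on simulated data.

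The named rows are the 4 elements, the 24 relatives by name and 16 genes that act on gammaretroviruses (*Mela* and *Emv2* were not matched). The 5 elements and 5 genes most like each member are also named, among rows that passed filterByExpr. The members and lists were chosen with earlier results of these data known. Replicate numbers did not pair the samples: 11 of 24 libraries correlated best with their own number, and the correlations of deviations from group means ran from -0.63 to 0.68. The table holds no single-copy positions or sequences, so no locus is given.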

Additional observations from a re-analysis of the deposited data

Results flagged for a closer look

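The effects of 4-OHT in the *Eset2* mutant clone (*E1E2* against *E2*) and in the *Eset1* clone (*E1* against WT) share no library. For MuLV-int they pointed in opposite directions in every library, and the difference of the log2 fold changes was -7.38, which was not tested. The relatives below differed in a test of the difference itself, by edgeR over all repeat elements. The difference was -4.92 for RLTR4_MM-int (adjusted p = 6.54e-29, edgeR), -4.48 for RLTR4_Mm (6.54e-29), -5.91 for RLTR6C_Mm (2.1e-28), -3.90 for RLTR6_Mm (8.86e-19), -2.93 for RLTR6B_Mm (6.96e-13), -1.74 for MuRRS4-int (4.47e-12) and -1.10 for MMERGLN_LTR (5.7e-09). All 7 had risen in the *Eset1* clone and had no call in the *Eset2* mutant clone, where they were already above WT before 4-OHT. The RLTR41, RLTR47 and RLTR48 rows were left out of this list. Of them RLTR41 also differed, by -1.14 (adjusted p = 1.63e-07, edgeR).

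The step that adds the *Suv39h* mutations was compared between the second series (*6KO2* against *E1E2 G9Gl*) and the first (*E1 S1S2* against *E1*), which differ in what else the lines lack. The libraries of MuLV-int and RLTR6-int moved in opposite directions in the 2 series, with differences of 3.13 and -6.04 on the log2 scale, neither of which was tested. RLTR4_Mm differed by 3.01 (adjusted p = 3.24e-22, edgeR) and RLTR4_MM-int by 2.11 (2.02e-15), higher in the second series. RLTR6B_Mm differed by -6.24 (1.45e-25), MURVY-int by -6.00 (3.3e-32) and MuRRS4-int by -2.40 (2.76e-17). Of the RLTR41 and RLTR48 rows, RLTR48B differed by -3.77 (adjusted p = 3.1e-15, edgeR), RLTR48C by -1.81 (1.66e-06) and RLTR41 by -1.55 (3.57e-12). RLTR41A2 differed by -1.52 (1.63e-07) and RLTR48A by -1.235 (2.11e-08). Among the listed genes *Bst2* differed by -2.71 (adjusted p = 6.71e-12, edgeR), *Zfp809* by -1.95 (3.5e-10) and *Apobec3* by 1.22 (0.000258). Genotype, clone and time in culture cannot be told apart in either contrast.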

How the results depend on the processing

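The summed level of the 4 elements was above WT in all 7 lines under every scaling tried. Scaled by the totals on repeats, which hold these elements themselves, the log2 fold changes were 5.04 in *E1* (5.36 by gene counts), 4.15 in *E1E2* (4.40), 5.11 in *E1E2 G9Gl* (5.92), 4.65 in *6KO2* (5.23), 4.59 in *E1 S1S2* (4.91) and 4.47 in *6KO1* (5.34). Between lines this scaling gave 0.96 for *E1E2 G9Gl* against *E1E2* (1.53), -0.46 for *6KO2* against *E1E2 G9Gl* (-0.69) and 0.18 for *6KO2* against *6KO1* (-0.10), and it turned *6KO1* against *E1 S1S2* from 0.43 to -0.12 for the sum and from 0.50 to -0.049 for MuLV-int. The last sum was 0.34 with TMM factors, 0.33 with DESeq2 size factors and 0.32 with totals of all rows, which also gave 1.42 for *E1E2 G9Gl* against *E1E2*. *6KO2* against *6KO1* was 0.061 with TMM and 0.060 with DESeq2 factors, and *E1E2 G9Gl* against *6KO1* was 0.72 and 0.74 in place of 0.59. As shares of LTR counts the 4 elements held 4.73% in WT, 52.0% in *E1*, 45.1% in *E1 S1S2*, 43.7% in *E1E2 G9Gl*, 42.3% in *E2*, 40.3% in *E1E2*, 38.5% in *6KO2* and 27.7% in *6KO1*.

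With no fold minimum the listed genes called higher and lower were 3 and 2 in *E1*, 5 and 5 in *E1 S1S2*, *6KO1* and *6KO2*, 5 and 2 in *E2*, 5 and 3 in *E1E2*, and 4 and 5 in *E1E2 G9Gl*. The relatives called were then 14 higher in *E2* against WT, 2 higher and 2 lower in *E1E2* against *E2*, 6 higher in *E1 S1S2* and 5 in *E1E2* against *E1*, 2 lower in *6KO1* against *E1 S1S2*, 2 lower in *E1E2 G9Gl* against *E1E2*, 6 higher in *6KO2* against *E1E2 G9Gl*, and, against *6KO1*, 11 lower in *6KO2* and 8 higher in *E1E2 G9Gl*. Without the RLTR41, RLTR47 and RLTR48 rows, an alternative chosen after seeing the data, the relatives called were 9 higher in *E1E2 G9Gl* against *E1E2* (14 with them), 3 lower in *6KO2* against *E1E2 G9Gl* (8) and 2 higher in *E1E2 G9Gl* against *6KO1* (5). Factors from the repeats alone gave 8 higher and 3 lower in *E1E2 G9Gl* against *E1E2*, 6 higher and 5 lower in *6KO2* against *E1E2 G9Gl*, and 2 lower in *6KO1* against *E1 S1S2*, where no TMM factor gave 0. The call of *Slc20a1* in *E1E2 G9Gl* went from 1 to 0 with RLE factors, with no TMM factor and by DESeq2.

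Leaving out 1 library at a time, this call ranged from 0 to 1 (0 without WT replicate 2 or *E1E2 G9Gl* replicate 2), the listed genes higher in *E2* from 1 to 2 (1 without *E2* replicate 3) and the relatives higher in *E1E2* against *E1* from 1 to 2 (1 without *E1* replicate 1). With a replicate block 44 of 44 counts of calls were unchanged, for example 10 relatives higher in *E1*, and the numbers did not pair the samples. Of 921 alternatives of the results above, with the folds of single elements left out, 855 stayed near the main value. Near means a shift under the SD between libraries or, for counts, an equal count or one within 1.5-fold. Among these 921, only 1 turned the direction of a fold whose libraries did not overlap, that of the summed level given above. The folds of single elements had 600 further alternatives. Of those, 526 stayed near the main value, 73 moved and 1 turned direction, the MuLV-int fold given above.

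With 3 libraries of 1 clone per condition, genotype and clone cannot be told apart between clones. Nor can *Eset1* loss and 4-OHT treatment between treated and untreated cells. An element's count sums all its copies and rests on how shared reads were split, so a rise can be 1 copy or many. The depth, with 19541909 or more gene counts per library, leaves the 4 elements well above counting error.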
